A study of Rattus norvegicus with 10 samples.

Results

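The nuclear genes of respiratory complexes II to V were taken as all rows of the count table whose symbol starts with Uqcr, Cox4 to Cox8 or Atp5, or is Sdha, Sdhb, Sdhc, Sdhd, Cycs or Cyc1. This rule gave 47 of the 17168 rows: 4 for complex II, 9 for complex III, 1 for cytochrome c, 16 for complex IV and 17 for complex V. The 10 samples were left hippocampi of male TgF-344AD rats (genotype Tg-AD), a Fischer line bred to model Alzheimer's disease with transgenes under the mouse prion promoter. Rodent chow was the diet of the 5 untreated rats. The other 5 ate chow with ibudilast, which inhibits several phosphodiesterases, for the 6 months from 5 months of age, and hippocampi of both groups were taken at 11 months. All 10 rats carried the transgenes, so no value here compares transgenic with normal tissue. Only the ibudilast samples had been kept in RNAlater-ICE, a tissue transition solution, so drug and storage cannot be told apart in any difference below.

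Complex II oxidises succinate and passes its electrons to ubiquinone. Complex III carries them on to cytochrome c, complex IV uses them to reduce oxygen, and complex V, the ATP synthase, is driven by the proton gradient that complexes III and IV help to build. Neurons rely on this chain for most of their ATP. Complexes III to V also hold subunits encoded in mitochondrial DNA, which were not analysed here.

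With ibudilast, 24 members rose, 4 fell and 17 did not pass, out of 45 that held enough counts to be tested, so that 62.2% of them passed against 47.1% of all genes tested. Cox7b of complex IV rose 1.58-fold and Atp5e of the ATP synthase 1.62-fold, while Sdha, the catalytic subunit of complex II, fell to 0.708 of its untreated level. Over all 12355 genes tested, 24.3% rose and 22.8% fell (edgeR's quasi-likelihood test, adjusted p under 0.05), against 53.3% and 8.89% of the members. The groups of rats did not overlap for 19 members that were higher and 4 that were lower, against 18% and 15.4% of all genes tested. The median log2 fold change was 0.28 for the members and 0.02 for all genes tested. No member that passed changed 2-fold: those that rose did so by 1.17- to 1.62-fold. The members not tested were the pseudogene Cox6c-ps1, with 1 count in all libraries together, and Cox8c, a testis isoform, with 2.

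The members took 0.813% ± 0.0214 of all counts in untreated and 0.962% ± 0.0454 in ibudilast rats (SD, n = 5 each). In bulk tissue, fewer cells of a type and less RNA per cell cannot be told apart. The plot of fold changes by gene shows that the 4 genes that fell are spread over complexes II, III and V.

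**Figure D1:**
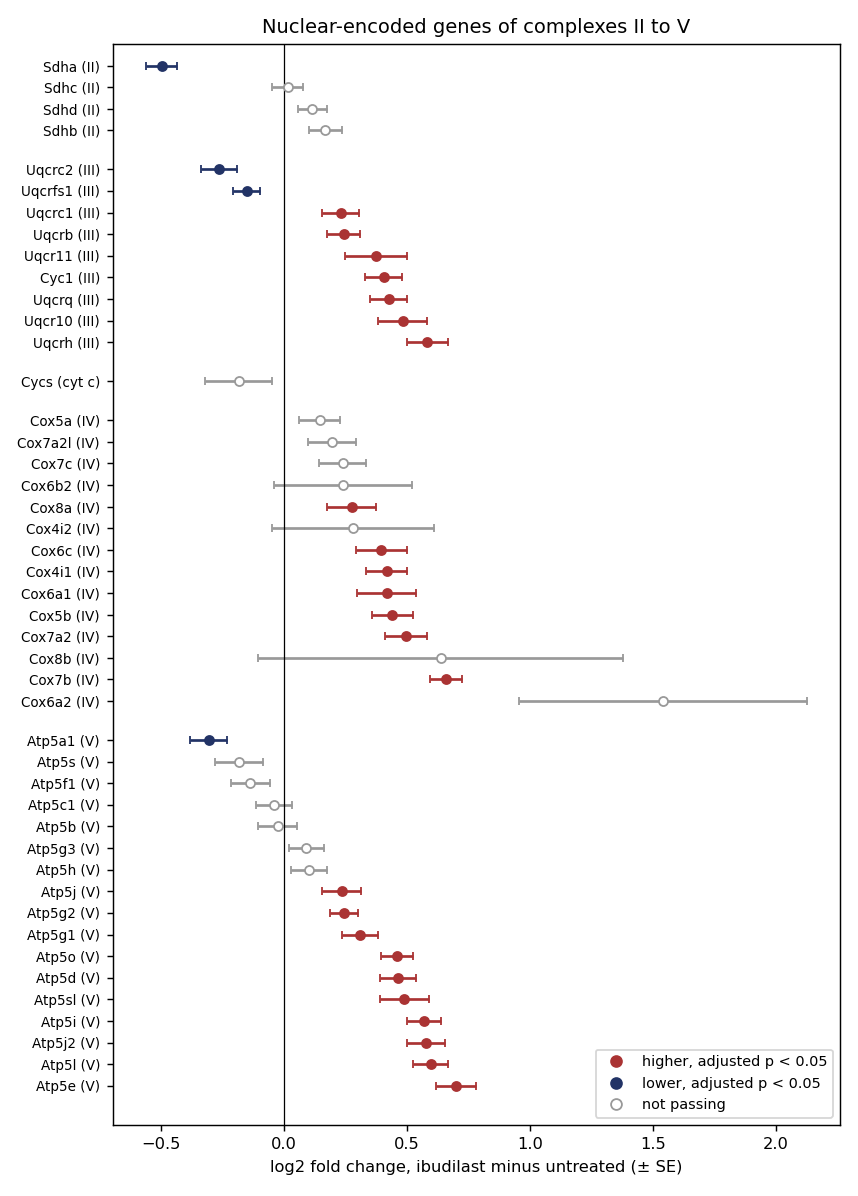
Log2 fold change of the 45 tested members, ibudilast minus untreated, with its SE (5 rats per group), grouped by complex. Filled points passed an adjusted p of 0.05; Sdha, Uqcrc2, Uqcrfs1 and Atp5a1 lie to the left of 0, and the wide bars belong to the scarce isoforms Cox6a2, Cox8b, Cox4i2 and Cox6b2.

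Some properties of the libraries bear on every result. The hippocampal neuron markers Prox1, Wfs1, Zbtb20 and Calb1 were present in all rats, at a summed 303 to 577.5 CPM (counts relative to the scaled library total) in untreated and 152.6 to 335.4 CPM in ibudilast rats, with 0 of 4 markers at 0 throughout; Calb1 fell and the others did not pass. The summed oligodendrocyte markers ran from 7619 to 14950 CPM in untreated and from 15500 to 18420 CPM in ibudilast rats, without overlap, and 4 of 8 rose. Endothelial markers ran from 295 to 544 against 146 to 259 CPM, with 5 of 6 lower. Microglial markers ran from 367 to 715 against 307 to 376 CPM (3 of 6 lower), and astrocyte markers from 4605 to 6373 against 3757 to 5436 CPM (4 of 6 lower). Excitatory neuron markers ran from 4573 to 6074 against 1165 to 5177 CPM (1 of 6 lower), the lowest value being ibudilast rat 4. Interneuron markers ran from 302 to 539 against 311 to 505 CPM (1 of 6, Pvalb, higher and 2 lower). Choroid plexus markers stood at 7772 CPM in untreated rat 2 and 7143 CPM in ibudilast rat 1, and at most at 348 CPM elsewhere, with 0 of 5 passing. Muscle markers ran from 31.8 to 57.0 against 46.9 to 76.8 CPM (1 of 3 tested higher). No listed marker was at 0 in all rats, and the ribosomal RNA genes Rn45s and Rn28s took 4.07% to 11.4% of counts in untreated and 5.88% to 11.9% in ibudilast rats. The part of these shifts in the results below was not tested.

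The promoters of these genes are known for sites of the ETS factor GABPA, of NRF1 and of YY1, all regulators of nuclear genes for mitochondria. RefSeq promoters, from 250 bases before to 50 after the start, were matched for 38 members, 15 of them by an older symbol, and searched on both strands for CCGGAAG (ETS core), GCGCA, any base and GCGC in a row (NRF1) and AAGATGG (YY1). An ETS core was found in 13 of the 38, an NRF1 match in 7 and a YY1 match in 9, and at least 1 of the motifs in 22. The shares were 34.2%, 18.4% and 23.7%, against 9.22%, 4.71% and 7.30% of all 27457 promoters of that length. Among the 9876 tested genes with a matched promoter the shares were 16.5%, 9.49% and 8.05%. At least 1 of the motifs was held by 57.9% of the 38, 18.9% of all promoters and 29.3% of those of tested genes. Matches of different kinds overlapped at 0 places in the members, while a palindromic NRF1 match counts on both strands.

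The 200 bases before the start are printed for 2 members that fell, Sdha and Uqcrc2, and for 2 that rose, Uqcrh and Atp5i, because they show these motifs on either side of the comparison. Coordinates are those of GRCr8, and the counts were made on rn6. Each sequence runs 5′ to 3′ on the gene's strand, with whole motif matches in capitals:
Sdha (chr1:30764353-30764552, plus strand): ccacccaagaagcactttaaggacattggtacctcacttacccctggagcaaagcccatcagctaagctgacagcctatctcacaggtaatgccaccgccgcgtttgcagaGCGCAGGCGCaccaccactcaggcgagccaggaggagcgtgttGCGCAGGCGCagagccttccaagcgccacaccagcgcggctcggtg
Uqcrc2 (chr1:184599040-184599239, plus strand): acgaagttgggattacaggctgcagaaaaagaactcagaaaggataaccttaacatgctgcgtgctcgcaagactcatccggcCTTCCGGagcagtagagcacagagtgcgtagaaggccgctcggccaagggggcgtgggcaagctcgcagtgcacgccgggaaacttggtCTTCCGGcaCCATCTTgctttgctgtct
Uqcrh (chr5:134790883-134791082, minus strand): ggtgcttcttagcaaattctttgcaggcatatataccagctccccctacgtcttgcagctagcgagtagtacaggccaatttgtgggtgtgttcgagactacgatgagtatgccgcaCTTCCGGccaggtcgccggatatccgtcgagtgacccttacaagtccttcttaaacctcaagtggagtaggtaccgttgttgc
Atp5i (chr14:1464660-1464859, plus strand): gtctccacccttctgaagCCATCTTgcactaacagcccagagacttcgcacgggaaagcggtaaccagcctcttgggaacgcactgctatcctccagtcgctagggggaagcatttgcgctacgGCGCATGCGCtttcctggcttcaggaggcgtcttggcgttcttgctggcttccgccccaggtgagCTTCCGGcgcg

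Sdha has NRF1 matches that begin 89 and 46 bases before the start, and another that spans the start and is not shown whole. In Uqcrc2, ETS matches begin 117 and 28 bases before it and a YY1 match 19 bases before it, each on the strand opposite to the gene. Uqcrh has 1 ETS match, 83 bases upstream. Atp5i holds all 3 kinds. At least 1 motif was found in 13 of 18 matched members that rose, 3 of 4 that fell and 6 of 15 that did not pass. The shares were 72.2%, 75% and 40%, against 29.3% of the promoters of tested genes. A link between motif and call was not tested. These matches describe letters in the window and not bound sites.

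Complex II consists of 4 proteins, all of them nuclear: the flavoprotein Sdha, the iron-sulphur protein Sdhb and the membrane anchors Sdhc and Sdhd. Sdha was at 338, 295, 332, 325 and 306 CPM in untreated rats 1 to 5 and at 218, 226, 224, 234 and 227 CPM in ibudilast rats 1 to 5. Every ibudilast rat was below every untreated rat. The log2 fold change was −0.50 ± 0.06 (SE; adjusted p = 0.000173), between −0.55 and −0.43 over the other settings tried.

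Sdhb, which takes the electrons from Sdha, was at 110, 108, 113, 108 and 116 CPM in untreated and at 108, 124, 128, 138 and 125 CPM in ibudilast rats. The groups overlapped through ibudilast rat 1, and the log2 fold change of 0.17 did not pass (adjusted p = 0.0651). It passed without ibudilast rat 1 (0.21, adjusted p = 0.0150). Sdhc was at 117, 115, 136, 119 and 121 against 125, 117, 121, 130 and 121 CPM, with a log2 fold change of 0.02 (95% interval −0.12 to 0.15). The groups did not overlap for Sdhd, the other anchor, yet it did not pass: 107, 110, 97.3, 106 and 110 CPM in untreated and 112, 114, 125, 113 and 110 CPM in ibudilast rats (0.11, adjusted p = 0.142). Among all genes tested, 47.1% passed and 22.8% fell. In complex II 1 of the 4 genes (25%) fell, near the share of all genes, and 3 did not pass. That count depended on the scale: with upper-quartile factors Sdhb (0.22, adjusted p = 0.0289) and Sdhd (0.16, adjusted p = 0.0257) rose, and Sdhb also passed with library size alone (adjusted p = 0.0348) and without untreated rats 2 and 3 and ibudilast rats 1 and 4 (adjusted p = 0.0336).

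Shares of the summed counts of the 4 genes need no scaling of libraries. Because they depend on transcript lengths, they are compared between rats and not between genes. Sdha held 50.2%, 47.0%, 49.0%, 49.3% and 46.9% of them in untreated rats and 38.6%, 38.9%, 37.5%, 38.1% and 38.9% in ibudilast rats. The group means were 48.5% ± 1.46 and 38.4% ± 0.622 (SD, n = 5), and the groups did not overlap. Sdhb went from 16.9% ± 0.573 to 21.2% ± 1.16, Sdhc from 18.5% ± 0.971 to 20.9% ± 0.853 and Sdhd from 16.1% ± 1.16 to 19.5% ± 0.998, each without overlap. As the 4 shares make up a whole, a smaller share of Sdha by itself raises the others, so they are not separate results. Sdhc gained share at a log2 fold change of 0.02. The change in composition of the complex II transcripts was therefore larger than the spread between rats; as it was looked at after the values were seen, it carries no test.

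**Figure D2:**
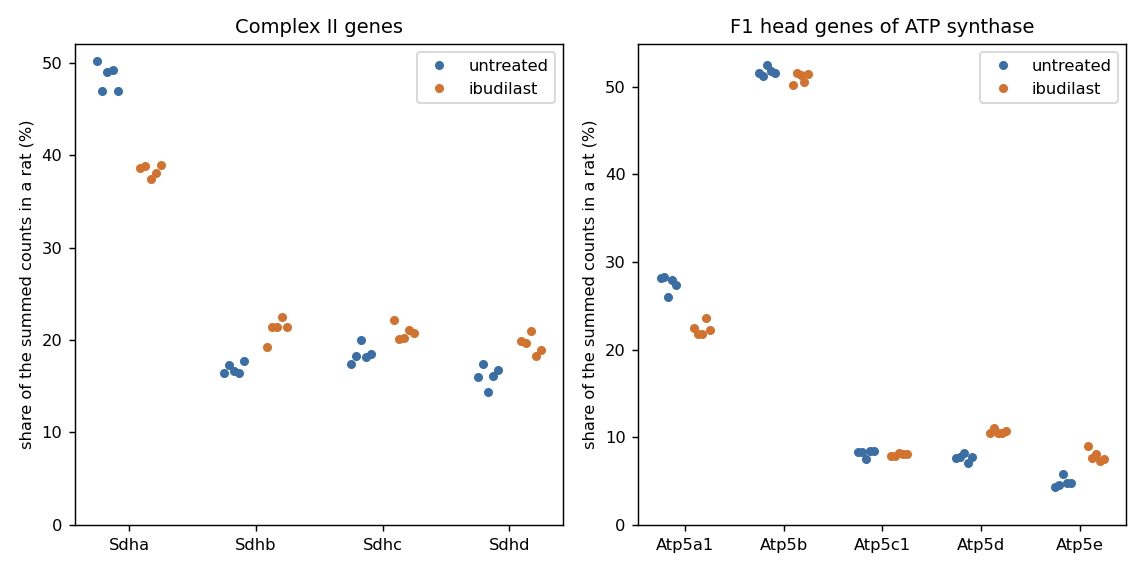
Share of each gene in the summed counts of the 4 complex II genes (left) and of the 5 F1 head genes of ATP synthase (right), in percent, 1 dot per rat (5 per group). Sdha and Atp5a1 take smaller shares in all ibudilast rats, and Sdhb, Sdhc, Sdhd, Atp5d and Atp5e larger ones. The shares of a set make up a whole, so they are not separate results.

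In complex III all 9 nuclear genes passed, 7 higher (77.8%) and 2 lower (22.2%). Among all genes tested 24.3% rose and 22.8% fell, so the share that fell is near that of all genes. The genes that fell encode the core protein Uqcrc2 and the Rieske iron-sulphur protein Uqcrfs1, while all 5 small accessory subunits rose, as did the haem protein Cyc1 and the core protein Uqcrc1. Uqcrh, the acidic hinge protein near the cytochrome c site, was at 110, 106, 137, 119 and 113 CPM in untreated and at 160, 175, 197, 170 and 176 CPM in ibudilast rats. The groups did not overlap, and the log2 fold change was 0.58 ± 0.08 (adjusted p = 0.000344). Uqcrq went from 97.1, 91.8, 107.5, 87.9 and 107.2 to 133, 132, 138, 119 and 137 CPM (0.43 ± 0.08, adjusted p = 0.00111), again without overlap.

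Cyc1, which passes electrons to cytochrome c, was at 180, 171, 157, 151 and 182 CPM in untreated and at 208, 225, 239, 213 and 229 CPM in ibudilast rats. It rose by 0.40 ± 0.075 (adjusted p = 0.00140). Uqcrc2 was at 252, 224, 218, 242 and 235 CPM against 195, 196, 211, 173 and 200 CPM. All ibudilast rats were below all untreated rats, at a log2 fold change of −0.27 ± 0.07 (adjusted p = 0.0123). Its partner in the core, Uqcrc1, went the other way, from 220, 196, 199, 198 and 215 to 209, 254, 242, 260 and 239 CPM (0.23 ± 0.08, adjusted p = 0.0281). The Uqcrc1 groups overlapped through ibudilast rat 1.

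Uqcrfs1 was at 135, 127, 126, 127 and 135 CPM in untreated and at 112, 114, 121, 123 and 115 CPM in ibudilast rats. This was the smallest of the 4 falls, at −0.15 ± 0.055 (adjusted p = 0.0423). Uqcr11 rose from 210 to 240 CPM over the untreated rats to 284, 298, 347, 203.5 and 316 CPM, where ibudilast rat 4 lay below every untreated rat (0.37 ± 0.13, adjusted p = 0.0307). Uqcrb and Uqcr10 rose by 0.24 and 0.48. The calls of Uqcrc1, Uqcrfs1 and Uqcr11 rested on all rats being present: that of Uqcrc1 was lost without untreated rat 2, 3 or 4 or ibudilast rat 2, 3, 4 or 5 (0.18 to 0.23, adjusted p up to 0.0951), that of Uqcrfs1 without untreated rat 1, 4 or 5 or ibudilast rat 1, 2 or 5 (−0.14 to −0.175, up to 0.0982), and that of Uqcr11 without untreated rat 1, 2 or 4 or ibudilast rat 2, 3 or 5 (0.30 to 0.37, up to 0.0744). With library size alone as the scale, Uqcrfs1 was at −0.08 (adjusted p = 0.397).

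Cycs, the somatic cytochrome c that shuttles between complexes III and IV, was at 240, 203, 167, 247 and 230 CPM in untreated and at 176, 174, 241, 160 and 206 CPM in ibudilast rats. The groups overlapped widely and the log2 fold change was −0.19 (95% interval −0.49 to 0.12, adjusted p = 0.294). Its transcript thus showed no call beside Cyc1, whose protein docks with it.

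In complex IV, 7 of 14 tested genes rose, 0 fell and 7 did not pass, and all 14 had a positive log2 fold change. The 50% that passed is near the 47.1% of all genes tested, of which 24.3% rose and 22.8% fell. Of the 10 genes at 5 CPM or more in the untreated rats, 7 rose and 3 did not pass. At that level 24.1% of all genes tested rose and 26.9% fell. Cox7b, a small membrane subunit, had the smallest p of all members. It was at 106, 93.1, 99.2, 96.7 and 101 CPM in untreated and at 148, 153, 175, 154 and 153 CPM in ibudilast rats. The groups lay far apart, and the log2 fold change was 0.66 ± 0.07 (adjusted p = 4.11e-05).

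Cox7a2, at 114, 108, 149, 121 and 125 CPM, rose to 172, 175, 180, 164 and 179 CPM (0.50 ± 0.09, adjusted p = 0.000959). Cox7a2 and Cox7b were the only members with counts that were not whole, a sign that some of their reads were shared with other rows, so that their values are less certain. The related Cox7a2l, a factor that joins complexes III and IV into supercomplexes, went from 194, 167, 224, 201 and 197 to 209, 219, 264, 201 and 233 CPM and did not pass (0.19, adjusted p = 0.127). The share of Cox7a2 in the counts of the pair was 37.1% to 39.9% in untreated and 40.5% to 45.2% in ibudilast rats, without overlap. Cox7a2l passed with library size alone (0.26, adjusted p = 0.0170).

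Cox5a and Cox5b are both nuclear subunits present once per complex. Cox5b, which binds zinc, rose from 186, 168, 207, 162 and 196 to 245, 245, 263, 234 and 262 CPM (0.44 ± 0.08, adjusted p = 0.00141). Cox5a was at 186, 164, 150, 167 and 183 CPM in untreated and at 164, 182, 205, 195 and 194 CPM in ibudilast rats (0.14, adjusted p = 0.182). Cox5a groups overlapped, and its share of the pair was 42.1% in untreated rat 3, 48.3% to 50.7% in the other untreated rats and 40.2% to 45.5% with ibudilast.

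Of the isoform pairs Cox4i1 and Cox4i2, Cox6a1 and Cox6a2, and Cox8a and Cox8b, the ubiquitous form was the abundant one in every rat. Cox4i1, a subunit that binds ATP as an allosteric inhibitor, was at 455, 430, 520, 443 and 478 CPM in untreated and at 601, 613, 670, 565 and 657 CPM in ibudilast rats. It rose by 0.42 ± 0.08 (adjusted p = 0.00227) without overlap. Its isoform Cox4i2, known for its oxygen-dependent use in the lung, was at 1.202 to 3.122 CPM and at 1.79 to 4.72 CPM, and did not pass (adjusted p = 0.515). Cox6a1 went from 345, 310, 477, 332 and 388 to 493, 458, 531, 453 and 537 CPM (0.42 ± 0.12, adjusted p = 0.0159), where untreated rat 3 lay within the ibudilast range. That call was lost without untreated rat 4 (0.36, adjusted p = 0.0520).

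Cox6a2, the heart and muscle form, was at 0.361, 0.263, 1.37, 0.449 and 0.284 CPM in untreated and at 0.576, 2.02, 0.976, 3.31 and 1.04 CPM in ibudilast rats. At 5 to 22 counts in an untreated library it had the largest log2 fold change of the members and just missed the threshold (1.54 ± 0.59, adjusted p = 0.0506). It passed without untreated rat 3 (2.19, adjusted p = 0.00749), without ibudilast rat 1 (1.76, adjusted p = 0.0302), with library size alone, with upper-quartile factors, by DESeq2 and by limma-voom. Of the muscle markers, Myh6, a heart myosin, rose by 2.02, while Myh7 (0.57) and Actn2 (−0.07) did not pass. Ibudilast rat 4, with the highest Cox6a2 level, had the lowest summed muscle markers of its group (46.9 CPM). Its Actn2 (15 CPM) and Myh7 (3.96 CPM) were the lowest of the group. Its Myh6 (27.6 CPM) lay within the range of the other ibudilast rats (18.8 to 29.4 CPM). Of the interneuron markers, Pvalb rose by 1.03 and was also highest in ibudilast rat 4 (120 CPM), while Gad1 and Gad2 fell and 3 did not pass. The part of the muscle and interneuron markers in the Cox6a2 values was not tested. The testis form Cox6b2, at 0.833 to 2.11 against 1.25 to 2.42 CPM, and the muscle form Cox8b, at 0.170 to 1.63 against 0.279 to 2.59 CPM, overlapped between groups. The isoforms Cox6b1 and Cox7a1 were not analysed here.

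Cox8a was at 272, 267, 337, 254 and 311 CPM in untreated and at 366, 341, 370, 299 and 368 CPM in ibudilast rats (0.28 ± 0.10, adjusted p = 0.0418). Both ranges overlapped, and the call held only with untreated rats 3 and 5 and ibudilast rat 4 as the rat left out; without any of the other 7 rats it was lost (adjusted p from 0.0672 to 0.119, at 0.22 to 0.28). Cox6c rose by 0.40 ± 0.10. Cox7c was at 0.24 (adjusted p = 0.0601) and passed without untreated rat 3 (0.27, adjusted p = 0.0231).

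Of the 17 genes with an Atp5 symbol, 10 (58.8%) rose and 1 (5.88%) fell, against 24.3% and 22.8% of all genes tested. The 10 include Atp5sl, which is not a subunit of the ATP synthase. The F1 head holds the catalytic sites between its alpha (Atp5a1) and beta (Atp5b) subunits, around a stalk of gamma (Atp5c1), delta (Atp5d) and epsilon (Atp5e). Atp5a1 fell from 746, 720, 642, 685 and 716 to 529, 554, 585, 593 and 574 CPM. The groups did not overlap (−0.31 ± 0.08, adjusted p = 0.00686), although with library size alone the adjusted p was 0.0519, at −0.24.

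Atp5b was at 1367, 1303, 1298, 1271 and 1344 CPM in untreated and at 1177, 1310, 1377, 1271 and 1327 CPM in ibudilast rats, a log2 fold change of −0.03 (95% interval −0.20 to 0.15). Atp5c1 was at 220, 211, 186, 208 and 220 against 184, 200, 222, 203 and 208 CPM (−0.04, 95% interval −0.20 to 0.12). Neither passed, and both changed sign with upper-quartile factors and with library size alone. The subunits at the foot of the stalk rose: Atp5d from 202, 197, 203, 173 and 203 to 245, 280, 283, 265 and 277 CPM (0.46 ± 0.07, adjusted p = 0.000521).

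Atp5e, the smallest F1 protein, went from 116, 115, 144, 117 and 125 to 212, 195, 216, 185 and 194 CPM (0.70 ± 0.08, adjusted p = 9.58e-05). It had the largest rise among members that passed. Within the counts of the 5 F1 genes, Atp5a1 held 27.6% ± 0.938 in untreated and 22.4% ± 0.719 in ibudilast rats (SD, n = 5), and Atp5b 51.7% ± 0.480 and 51.0% ± 0.643. Atp5d went from 7.68% ± 0.420 to 10.7% ± 0.234 and Atp5e from 4.85% ± 0.568 to 7.93% ± 0.679. The shares of Atp5a1, Atp5d and Atp5e did not overlap between groups, while those of Atp5b and Atp5c1 did. Summed over the 5 genes, the head stood at 2546 ± 84.5 and 2533 ± 122 CPM.

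**Figure D3:**
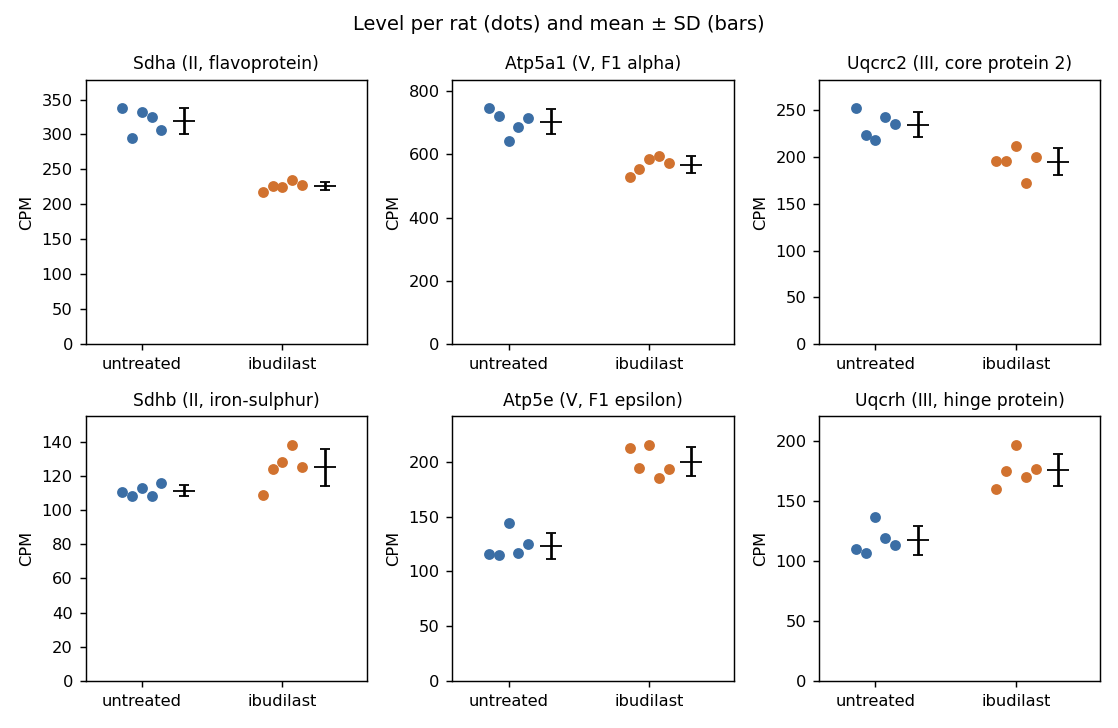
CPM per rat (dots, 5 per group) with mean and SD for a gene that fell (Sdha, Atp5a1 and Uqcrc2, top row) and another gene of the same complex (Sdhb, Atp5e and Uqcrh, bottom row). Groups lie apart in all panels except Sdhb, where ibudilast rat 1 (108 CPM) lies among the untreated rats; axes start at 0 and differ between panels.

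The membrane subunits e, f and g (Atp5i, Atp5j2 and Atp5l), which take part in pairing ATP synthases at the edges of cristae, rose together and without overlap. Atp5l was at 134, 131, 129, 125 and 141 CPM in untreated and at 194, 188, 228, 193 and 194 CPM in ibudilast rats (0.60 ± 0.07, adjusted p = 0.000101). Atp5i was at 75.4, 72.1, 89.8, 75.9 and 78.0 CPM in untreated and at 116, 109, 122, 119 and 115 CPM in ibudilast rats (0.57 ± 0.07, adjusted p = 0.000123). Atp5j2 rose by 0.58 ± 0.08. All 3 rose 1.49- to 1.51-fold.

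The peripheral stalk, which holds the head still, was mixed. Its upper piece Atp5o (OSCP) rose from 182 to 187 CPM over the untreated rats to 238 to 282 CPM (0.46 ± 0.06), and Atp5j (F6) from 113 to 147 to 138 to 161 CPM (0.23 ± 0.08, adjusted p = 0.0351). The call of Atp5j was lost without untreated rat 1, 2, 4 or 5 or ibudilast rat 2, 3, 4 or 5 (0.17 to 0.25, adjusted p up to 0.118). The long b subunit Atp5f1 was at −0.14 (adjusted p = 0.185) and the d subunit Atp5h at 0.10 (adjusted p = 0.292). Without untreated rat 3, which had the lowest untreated Atp5f1 level, Atp5f1 was at −0.22 (adjusted p = 0.0103).

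The c ring is made of copies of 1 mature protein that is encoded by 3 genes with different import sequences. Atp5g1 went from 92.6, 94.8, 79.2, 82.4 and 95.5 to 108, 110, 121, 101 and 111 CPM (0.31 ± 0.07, adjusted p = 0.00625). Atp5g2 went from 116, 114, 130, 114 and 116 to 138, 135, 143, 140 and 142 CPM (0.24 ± 0.06, adjusted p = 0.00553), and neither gene overlapped between groups. Atp5g3, at 188, 179, 151, 172 and 182 against 174, 186, 193, 190 and 185 CPM, did not pass (0.09, adjusted p = 0.329). Their shares of the summed c counts overlapped between groups, with 45.7% ± 2.19 and 42.7% ± 1.02 for Atp5g3. In untreated rat 3 the share of Atp5g2 was 36.1%, against 29.2% to 30.9% in the other untreated rats.

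Of the remaining symbols, Atp5s (coupling factor B) was at −0.18 (adjusted p = 0.149), and its relative Atp5sl rose by 0.49 ± 0.10. Atp5sl is known today as a factor for complex I.

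Per complex, the mean log2 CPM over the tested members differed by −0.05 for complex II, 0.26 for complex III, 0.44 for complex IV and 0.24 for complex V. The groups overlapped for complex II and not for the others. For complex IV the mean ran from 5.29 to 5.78 in untreated rats, the highest being rat 3, and from 5.83 to 5.93 with ibudilast, and the scarce isoforms weigh in it as much as the abundant genes. Summed CPM, which the abundant genes set, went from 658 ± 19.8 to 588.5 ± 19.7 for complex II, from 1278 ± 46.7 to 1495 ± 101 for complex III, from 2210 ± 217 to 2852 ± 185 for complex IV and from 3965 ± 108 to 4269 ± 202 for complex V (SD, n = 5). By this measure complex II was lower in all ibudilast rats, complexes III and IV were higher in all of them, and complex V overlapped. The sign of the complex II mean depended on the scale, at 0.02 with library size alone and 0.10 by the median over its genes.

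**Figure D4:**
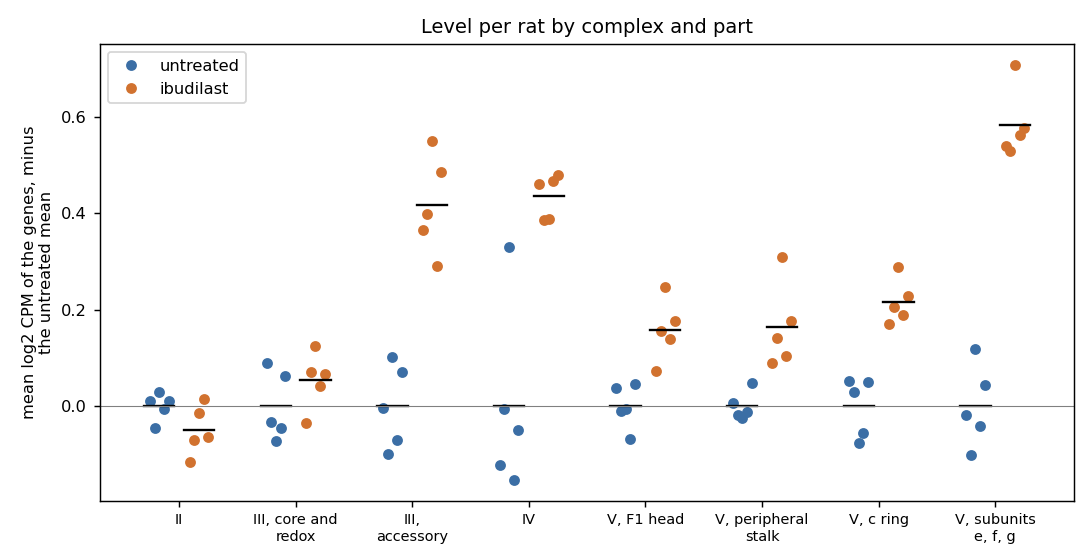
Mean log2 CPM of the genes of each complex or part, per rat (dots, 5 per group; bars are group means), minus the untreated mean. Complex II and the core and redox subunits of complex III overlap between groups; the small accessory subunits of complex III, complex IV and subunits e, f and g of complex V lie 0.42, 0.44 and 0.58 above the untreated mean.

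Genes were also split by role. Of the 10 core, catalytic or redox subunits (Sdha, Sdhb, Uqcrc1, Uqcrc2, Cyc1, Uqcrfs1, Cycs, Atp5a1, Atp5b and Atp5c1), 2 rose and 4 fell, with a median log2 fold change of −0.10. Of the 33 other subunits, 21 rose, 0 fell and 12 did not pass, with a median of 0.40, and 32 had a positive log2 fold change. All 4 members that fell were thus in the smaller group. By share, 20% rose and 40% fell of the 10, and 63.6% rose of the 33. Over all genes tested, 24.3% rose and 22.8% fell. The 10 hold no complex IV gene, while the 33 hold all 14 tested ones, 4 of them below 5 CPM. The exception to the 0 of 33 that fell was Atp5f1 when untreated rat 3 was left out. With library size alone 2 of the 10 fell, Sdha and Uqcrc2. The calls of Sdha, Uqcrc2 and Atp5a1 held with any single rat left out. The difference between the roles was not tested.

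Untreated rat 3 had the highest level within its group for 14 of the 24 members that rose and the lowest for 3 of the 4 that fell. Ibudilast rat 3 was the highest of its group for 20 of the 24. Without untreated rat 3, 25 members rose and 5 fell. Without untreated rats 2 and 3 and ibudilast rats 1 and 4, whose marker levels stood apart, 28 rose and 4 fell, with all 28 earlier calls among them.

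Assembly factors put these complexes together and are not part of them. For complex IV, 9 of 16 measured factors rose, 4 fell and 3 did not pass, so that 81.2% passed, against 47.1% of all genes tested. The 25% that fell is near the 22.8% of all genes tested. Cox20, a chaperone of the mitochondrially encoded subunit COX2, rose by 0.85 and Pet100 by 0.56, while Coa5 fell by 0.68 and Lrpprc, which stabilises mitochondrial messenger RNAs, fell by 0.51. Of 5 factors for complex III, 2 rose (Uqcc2 by 0.87 and Bcs1l by 0.33) and Lyrm7 fell by 0.27. The number that fell went from 1 to 0 without untreated rat 1 or 5 or ibudilast rat 1 or 2, and to 2 without untreated rat 3. It was also 0 with library size alone, with a replicate block, at a threshold of 0.01 and without the 4 libraries that stood apart. Among 5 factors and regulators of complex V, Fmc1 rose by 0.79, Atpaf2 by 0.38 and the ATPase inhibitor Atpif1 by 0.29, and 2 did not pass. Of these 2, 1 was lower without untreated rat 3 or ibudilast rat 4 and without the 4 libraries that stood apart. The number lower was also 1 with RLE factors, without a count filter and by DESeq2. In the lists for complexes III and V, 60% passed in each. The single measured factor of complex II, Sdhaf2, was at 0.05 (adjusted p = 0.600).

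Regulators of mitochondrial biogenesis went both ways, with 3 of 16 higher, 6 lower and 7 not passing. The 56.2% that passed is near the 47.1% of all genes tested. Polrmt, the mitochondrial RNA polymerase, rose by 0.81 and the nuclear receptor Esrra by 0.62. Yy1 fell by 0.58, the mitochondrial rRNA methyltransferase gene Tfb1m by 0.47, Gabpa by 0.51 and the coactivator Ppargc1a by 0.63. Nrf1 was at 0.07 (adjusted p = 0.669) and Tfam, which packs mitochondrial DNA, at 0.06 (adjusted p = 0.588). Transcripts of 2 of the 3 factors whose motifs were searched were therefore lower with ibudilast, and what that means for the members was not tested.

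Of 15 genes for mitochondrial proteins outside the chain, 3 rose, 5 fell and 7 did not pass. The 53.3% that passed is again near the 47.1% of all genes tested. Cs, citrate synthase of the matrix, fell from 171 ± 12.7 to 93.5 ± 5.11 CPM. Opa1, a dynamin of inner membrane fusion, fell by 0.82, Immt, which shapes cristae junctions, by 0.46 and the chaperone Hspd1 by 0.45. Vdac1, the outer membrane channel, fell by 0.34 (adjusted p = 0.0316). In complex I, the most similar part of the chain, 25 of 36 subunit genes (69.4%) rose and 1 (2.78%) fell, Ndufs1. Here 24 (53.3%) and 4 (8.89%) of 45 did, against 24.3% and 22.8% of all genes tested. The rise was thus seen in complex I as well. Ndufs1, the large iron-sulphur subunit, was at −0.67, and Ndufa2, Ndufb2 and Ndufa12 rose by 0.69, 0.57 and 0.41. Ndufa4, counted there by its symbol, is today assigned to complex IV and rose by 0.27. The difference between the complexes was not tested.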

How the data were processed

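RNA from the left hippocampus of 10 rats was measured in 1 library per rat, whose title gave its group and number. Libraries came, per the labels, from a column RNA kit and a stranded mRNA kit. The submitters' processing notes list the rn6 build and, with no roles, the tools RSEM 1.2.15, Bowtie2 2.1.0, edgeR and bcl2fastq. The authors deposited expected counts per gene symbol, not normalized, and a table of normalized signal. In each library this signal was a whole multiple, within 0.01, of its value at 1 count. The sources used here do not name an annotation.

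Among the values, 12% were not whole, and all were rounded before testing. Library totals were 14806807 to 18533520 counts. In R 4.3.3, filterByExpr kept 12355 of 17168 genes, which were tested with the robust quasi-likelihood F test of edgeR 4.0.16 on TMM-scaled libraries. P-values were adjusted after Benjamini and Hochberg over all genes kept, with a threshold of 0.05. The script was tested on simulated data. CPM values used TMM-scaled library sizes, and log2 CPM a prior count of 2. Summed lists, shares and medians were described without a test. No 2 libraries of a group agreed within sampling noise (lowest chi-square per gene 11.3), and separate rats are stated in the series' design text. Spreadsheet dates had replaced 25 symbols, 2 of them duplicates, and these are not named.

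The members and lists were chosen with earlier results of these data known. Per-rat values are given for all Sdh genes, Cyc1, Cycs, isoform sets, core, catalytic and redox subunits, every member that fell, and the 3 members of complexes III, IV and V with the smallest p; other lists are represented by up to 4 called genes by smallest p, and by Ppargc1a, Nrf1, Gabpa, Tfam, Cs and Vdac1. The alternatives tried were scaling without factors, by RLE or by upper quartile, 3 other low-count filters, DESeq2 1.42.0, limma-voom (limma 3.58.1), limma-trend on the deposited signal (log2, pseudocount of 1), a replicate block, a threshold of 0.01, leaving out each rat, and leaving out 4 libraries that stood apart by marker genes. After the data were seen, edgeR was also run on whole reads recovered from the authors' signal, with 100% of values whole within 0.01, and shares within complex II and the F1 head were added. Promoters are RefSeq sequences of the GRCr8 assembly, matched by symbol or synonym for 38 of 47 members, and come from a reference strain, not from these rats. Fold changes were not set against transcript or protein length.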

Additional observations from a re-analysis of the deposited data

Results flagged for a closer look

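In groups of 5 rats, a single value stood apart by Dixon's criterion (gap over range above 0.71) in 19 of 132 groups of levels or shares. Chance alone gives about 1 in 20 where groups are independent and values normal. These groups are not independent: a gene can count by level and by share, and shares of a set make up a whole. The tally therefore cannot show an excess over chance. Untreated rat 3 gave 10 of the 19. This rat also had the highest summed astrocyte, microglial and endothelial markers of all rats (6373, 715 and 544 CPM). It had the lowest summed oligodendrocyte markers (7619 CPM) and the lowest Prox1 level (4.495 CPM). Its summed hippocampal neuron markers (448.8 CPM) lay between those of other untreated rats. The part of these marker levels in its values below was not tested. Its Sdhd level was 97.27 CPM (the others 106 to 110), Cox6a2 1.374 CPM, Cox6c 221 CPM, Atp5f1 190.1 CPM and Atp5g2 129.9 CPM. Its shares were 36.1% for Atp5g2 and 41.89% for Atp5g3 among the c subunit genes, 0.2873% for Cox6a2 beside Cox6a1, 42.08% for Cox5a beside Cox5b and 7.521% for Atp5c1 in the F1 head. Ibudilast rat 3 was high for Sdhd (125.4 CPM), Cox7b (175.2 CPM) and Atp5l (227.7 CPM). Ibudilast rat 4 was high for Cox4i2 (4.725 CPM, a share of 0.829% beside Cox4i1). Ibudilast rat 1 was high for Cox8b (2.591 CPM, a share of 0.7038% of the Cox8 genes), as was untreated rat 2 by share (0.6072%). Untreated rat 4 was low for Atp5d, at 172.9 CPM.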

How the results depend on the processing

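Of the 28 members that passed, 20 kept direction and call in all 22 other settings that use the threshold of 0.05. The 22 include the run on recovered reads, which is not a separate check. The 24 higher and 4 lower calls became 28 and 2 with library size alone, 18 and 2 at a threshold of 0.01 (all genes: 1859 lower), and 19 to 25 and 3 to 5 with 1 rat left out. Same-numbered rats did not all deviate together (correlations of −0.3279 to 0.4165; no untreated rat matched its own number best, and of the ibudilast rats number 5 did). With the replicate block 23 members were higher and 1, Sdha, lower, with adjusted p-values of 0.0587 for Uqcrc2, 0.0505 for Atp5a1 and 0.146 for Uqcrfs1. Genes near 0 changed sign: Sdhc to −0.0043 with RLE factors, −0.0133 without a count filter and −0.0039 by DESeq2 (−0.0291 to 0.0333 with 1 rat left out); Atp5b to 0.0191 with upper-quartile factors, 0.0424 with library size alone and 0.0119 without the 4 libraries (−0.0566 to 0.005 with 1 rat left out); Atp5c1 to 0.0056 with upper-quartile factors and 0.0268 with library size alone. With 1 rat left out, the scarce Cox4i2 ran from −0.0824 to 0.4345 and Cox8b from −0.1931 to 1.4547, and their share differences from −0.1299 to 0.008994 and from −0.05861 to 0.1511 points. The level difference of complex II was 0.0193 with library size alone and 0.0979 by the median over genes; that of complex III was 0.4035 by the median, and that of complex V 0.3138 with library size alone and 0.5711 by the median. On the recovered whole reads, edgeR called 3004 genes higher and 2813 lower, with 24 and 4 members among them. Because the deposited signal is the rounded count over the scaled library total, these reads repeat the counts of the main fit. That run is therefore not a separate check of the calls. The cause of these moves was not tested. Depth limits Cox4i2, Cox6a2, Cox6b2 and Cox8b, all below 5 CPM.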
